A study of Mus musculus with 16 samples.

Results

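The genes described here are 8 genes of cholesterol synthesis and its control: Hmgcs1, Idi1, Fdps, Sqle, Lss, Cyp51, Insig1 and Srebf2. They were chosen by symbol from a pathway list, with earlier results of these data known. Counts of the 8 set against shares of all genes are therefore descriptions. All 8 were among the 20525 genes of the deposited matrix, and all 8 were among the 18035 genes tested. Of the 8, 6 encode enzymes of synthesis and the other two, Insig1 and Srebf2, encode regulators. None encodes a sterol uptake protein, so uptake is described from a wider list. The series measured RNA in lysates of frozen mouse kidney sections (30 µm) by sequencing, in 16 libraries from mice 8 weeks old whose background the labels write as C56BL/6. Mice were WT or C3-/-, a genotype that targets complement component C3, and received either PBS or glycerol. Glycerol (7.5 ml/kg, 50%) was injected into a thigh muscle, where it breaks down muscle fibres (rhabdomyolysis) and so injures the kidney. Each combination of genotype and injection had 4 libraries. Time after injection and sex are absent from the labels, as is any statement that libraries came from separate animals. The p-values therefore reflect the spread among these libraries alone, and that spread may be technical.

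Cholesterol is built from acetyl-CoA. HMG-CoA synthase (Hmgcs1) makes the precursor of mevalonate, isopentenyl-diphosphate isomerase (Idi1) and farnesyl diphosphate synthase (Fdps) build isoprenoids, squalene epoxidase (Sqle) and lanosterol synthase (Lss) form the first sterol, and the lanosterol demethylase Cyp51 starts its conversion to cholesterol. The pathway is controlled by SREBP-2, the product of Srebf2, a membrane-bound transcription factor that is cleaved when sterols run low and then activates these genes. Insig1 encodes an anchor that keeps SREBP in the endoplasmic reticulum when sterols are plentiful, and is itself an SREBP target. In the kidney, tubule cells make cholesterol and also take up filtered and circulating lipid.

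The promoters of the 4 genes that fell after glycerol in WT are shown because SREBP-2 is known to act on such promoters together with the factor NF-Y. Each is the RefSeq table's 300 bases on GRCm38.p6, from 250 before to 50 after the gene's start, 5′ to 3′ on the gene's strand. The table matched 6 of the 8 genes. The unmatched ones were Fdps and Sqle, the 2 that rose after glycerol in WT, so no promoter of a gene that rose was searched. Capitals mark the matches on either strand to TCACNCCAC (a sterol regulatory element core), CCAAT (the NF-Y box, read as ATTGG on the other strand) and CACGTG (an E-box). No match in these 4 overlapped another. The intervals are chr13:119690101-119690400 (plus strand) for Hmgcs1, chr13:8885356-8885655 (plus) for Idi1, chr5:4104648-4104947 (minus) for Cyp51 and chr5:28071162-28071461 (plus) for Insig1.
Hmgcs1: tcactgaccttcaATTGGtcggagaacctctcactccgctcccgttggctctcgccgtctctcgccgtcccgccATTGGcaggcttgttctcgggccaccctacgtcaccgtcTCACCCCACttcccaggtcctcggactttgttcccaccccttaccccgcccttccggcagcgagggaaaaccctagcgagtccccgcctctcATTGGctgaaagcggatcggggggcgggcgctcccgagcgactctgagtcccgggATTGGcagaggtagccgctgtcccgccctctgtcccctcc
Idi1: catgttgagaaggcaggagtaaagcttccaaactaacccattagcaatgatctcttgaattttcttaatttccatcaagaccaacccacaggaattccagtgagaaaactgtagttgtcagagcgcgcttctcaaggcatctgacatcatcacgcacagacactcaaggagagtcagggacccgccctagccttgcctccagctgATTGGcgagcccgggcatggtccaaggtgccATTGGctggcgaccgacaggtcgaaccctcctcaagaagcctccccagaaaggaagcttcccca
Cyp51: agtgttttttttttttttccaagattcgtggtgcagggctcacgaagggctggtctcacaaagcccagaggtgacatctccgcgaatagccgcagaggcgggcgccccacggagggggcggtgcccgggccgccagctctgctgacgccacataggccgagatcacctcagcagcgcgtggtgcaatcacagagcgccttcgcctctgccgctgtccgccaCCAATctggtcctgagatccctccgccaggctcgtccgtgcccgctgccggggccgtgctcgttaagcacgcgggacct
Insig1: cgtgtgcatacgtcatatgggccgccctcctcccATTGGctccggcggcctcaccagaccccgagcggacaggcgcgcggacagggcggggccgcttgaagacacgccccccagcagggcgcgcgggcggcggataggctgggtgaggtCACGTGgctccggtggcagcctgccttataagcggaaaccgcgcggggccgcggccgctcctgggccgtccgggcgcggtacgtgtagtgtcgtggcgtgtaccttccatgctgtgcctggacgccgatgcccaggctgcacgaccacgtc
TCACNCCAC was found in 1 of the 6 member promoters, that of Hmgcs1, beginning 137 bases before the start, and in 1.24% of all 32851 promoters of this length. CCAAT was found in 6 of 6, and in 37.4% of all promoters. Hmgcs1 held matches to CCAAT beginning 237, 176 and 45 bases before the start, with a further one after it. CACGTG was found in 1 of 6, in Insig1 beginning 101 bases before the start, and in 7.15% of all promoters. A match describes letters in this window and no binding was measured. Only full matches to these patterns were sought, so a promoter without a match may still hold a variant of the element.

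Per library, the authors' DESeq2-normalized counts summed to between 25.81 and 38.39 M, and their read depth is unknown. All 9 proximal tubule markers on the list used here (such as Lrp2 and Slc34a1) and the loop, distal and collecting duct markers were present, so the libraries carried the labelled tissue's transcripts. C3 itself was not lower in libraries labelled C3-/-: it ranged from 563.8 to 1140 there after PBS against 334.9 to 470.5 in WT, and from 1457 to 8008 after glycerol against 1712 to 4718. The sources used here do not say which part of C3 is deleted, so its total signal does not check the label. Every direction given for C3-/- rests on the labels. The sample descriptions carry S numbers that run from 1 to 13 over 13 libraries, and that repeat 3, 4 and 5 in WT glycerol 4 and C3-/- glycerol 1 and 3. These 3 libraries scored 220.4, 143.6 and 96.35 on the first principal component (45% of the variance) against -58.56 to 39.53 in the others, and WT glycerol 4 had 3374 genes at 0 against 190 to 982. The Y-linked gene Ddx3y was above 100 in all 8 WT libraries, in C3-/- PBS 4 and in C3-/- glycerol 3 and 4, and at most 1.12 in the other 5. Xist, a transcript of female cells, was at 16098 to 35410 in these 5 and at 3.69 to 104.8 in all others. This pattern of sex thus differed between the genotypes and, within C3-/-, between PBS and glycerol. Results are therefore also given for the 13 libraries with S numbers 1 to 13, and, where it changed a call, with the number series and Ddx3y as covariates.

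Per kilobase of merged exon, the scale used here to rank genes, Hmgcs1 was the highest of the 8 in WT PBS kidney, at 4299 ± 349.7 normalized counts per kb (SD, n = 4). Cyp51 (1558 ± 178.5) and Idi1 (1544 ± 145.9) followed and differed by less than their spread. Insig1 (581.2 ± 47.13), Sqle (420.0 ± 18.73) and Srebf2 (339.9 ± 11.4) came next, then Fdps (165 ± 14.85) and Lss (77.16 ± 3.156). The order of levels was not the same in every group. In C3-/- PBS, Hmgcs1 (3105 ± 497.9) and Cyp51 (2350 ± 446.5) came closest to each other, and Idi1 was at 546.9 ± 135.5, within its spread of Insig1 at 427 ± 74.77. After glycerol in WT, Sqle (795.3 ± 221.3) stood next to Idi1 (696.2 ± 343.1) and Cyp51 (549.5 ± 167.4) with overlapping spreads. In C3-/- glycerol, Cyp51 (1082 ± 97.26) remained above Sqle (622.8 ± 139.3). Lss was the lowest of the 8 in all 4 groups, at 76.31 to 84.87 per kb on average. Merged exons take in all annotated transcripts (10787 bases for Lss, 4208 for Fdps), so these ranks depend on the annotation. Not divided by length, Lss in WT PBS (783 to 858) was above Fdps (626 to 754).

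**Figure D1:**
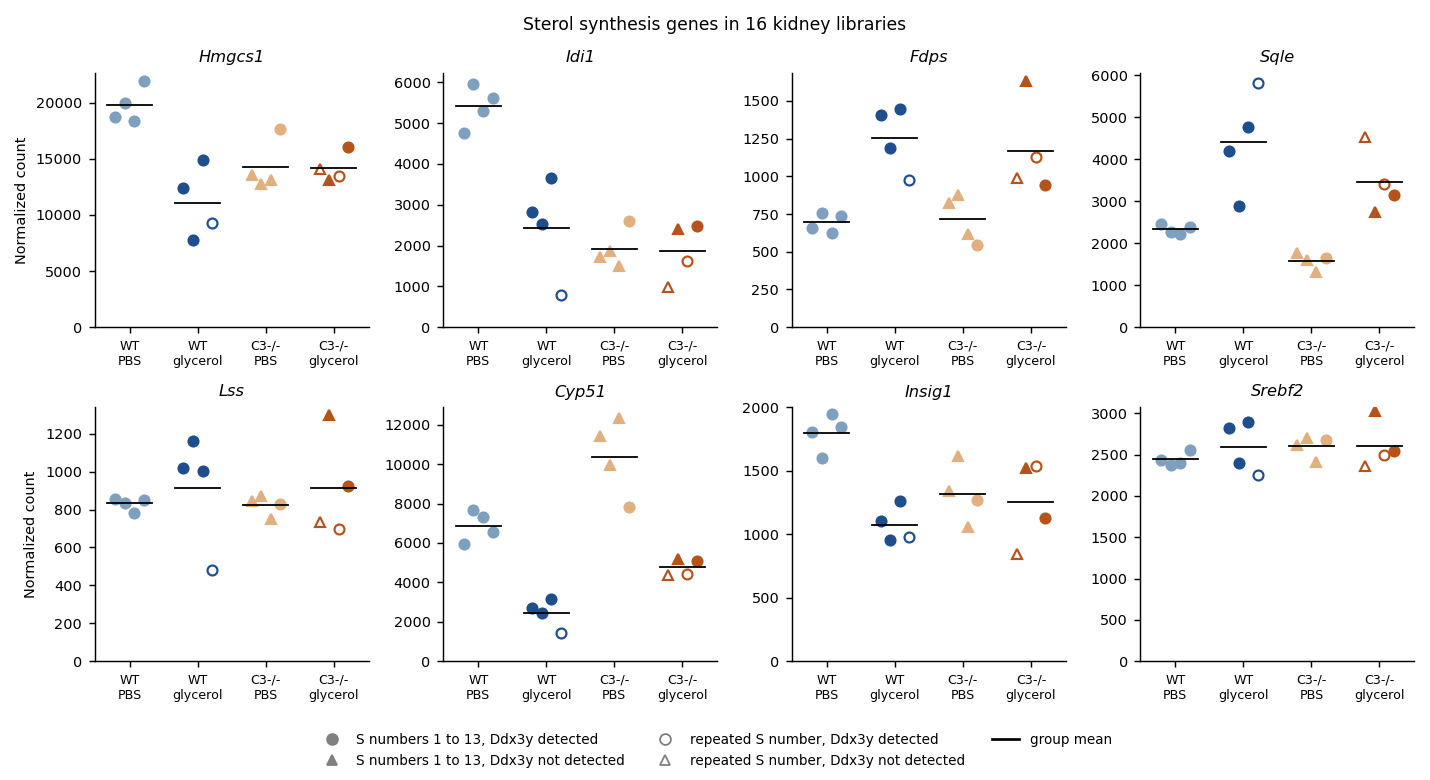
DESeq2-normalized count (linear axis from 0, not divided by length) of each of the 8 genes in the 16 libraries, by group. Points are libraries, bars are group means, open symbols are the 3 libraries with a repeated S number and triangles are libraries without Ddx3y. Cyp51 was lower after glycerol in both genotypes and Sqle higher, while Srebf2 stayed between 2252 and 3032 in every library.

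The plot of the 8 genes by library shows how tightly PBS libraries clustered in WT. There the coefficient of variation ran from 3.4% (Srebf2) to 11.5% (Cyp51), against 12.2% (Srebf2) to 49.3% (Idi1) after glycerol. In libraries labelled C3-/- it ran from 5.2% to 24.8% after PBS and from 9.0% to 37.8% after glycerol.

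Glycerol against PBS in WT kidney asked how the pathway's transcripts differ in rhabdomyolysis-associated kidney injury. The genes did not move as a block: Hmgcs1, Idi1, Cyp51 and Insig1 fell, Fdps and Sqle rose, and Lss and Srebf2 did not pass the test. That is 6 of 8 called by limma at an adjusted p below 0.05, against 25.9% of all genes tested (12.5% higher and 13.3% lower). The values of the same 6 genes did not overlap between the groups, against 40.6% of all genes. Within the 13 libraries 7 of 8 were called, against 56.2%, the addition being Lss. The log2 fold changes ran from -1.56 to 0.88 with a median of -0.34, against a median of -0.11 over all genes. With each column rescaled to an equal total, the median of all genes moved to -0.03 and 4 of 8 were called, against 23.4% of all genes, Idi1 (adjusted p = 0.073) and Insig1 (adjusted p = 0.0684) being lost. In bulk kidney RNA, fewer cells of a type and less RNA per cell cannot be told apart.

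Early in the pathway, Hmgcs1 (chr13:119690379-119708260, plus strand, GRCm38) had normalized counts of 18738, 20004, 18343 and 21911 in WT PBS and 12383, 7758, 14870 and 9290 in WT glycerol. All 4 glycerol libraries lay below all 4 PBS libraries. The log2 fold change was -0.88 ± 0.20 (SE; adjusted p = 0.00492), or 0.545 times the PBS level, and -0.81 within the 13 libraries. Idi1 (chr13:8885501-8892451, plus) was at 4762, 5963, 5299 and 5626 after PBS and at 2810, 2522, 3645 and 783.8 after glycerol. The groups did not overlap, and glycerol 4, one of the libraries with a repeated S number, stood far below the other glycerol libraries. The fall of Idi1 was -1.35 ± 0.40 (adjusted p = 0.0221). Without WT glycerol 4 it was -0.87 (adjusted p = 0.0354), and the call was lost without WT PBS 2 (-1.30, adjusted p = 0.0565) or WT PBS 4 (-1.33, adjusted p = 0.0513).

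Fdps (chr3:89093588-89101959, minus strand), the enzyme that feeds both sterol synthesis and protein prenylation, went the other way. It was at 657.2, 754.0, 625.6 and 739.7 after PBS and at 1405, 1189, 1445 and 975.4 after glycerol, without overlap, a log2 fold change of 0.84 ± 0.21 (adjusted p = 0.00823; 0.95 within the 13 libraries). Most of Fdps is overlapped on the same strand by Gm43738 (chr3:89081939-89101099), annotated as protein-coding, so reads may be split or shared between them. The effect on the Fdps level, its rank per kb and its fold change was not tested.

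At the squalene steps, Sqle (chr15:59315077-59331192, plus) had 2452, 2259, 2229 and 2378 in WT PBS and 4189, 2873, 4762 and 5819 in WT glycerol. Every glycerol library was above every PBS library. Sqle rose by 0.88 ± 0.20 (adjusted p = 0.00581), or 1.84-fold, and by 0.73 within the 13 libraries. Lss (chr10:76531588-76557138, plus), the next enzyme, was at 858.2, 834.8, 783.5 and 852.7 after PBS and at 1020, 1161, 1002 and 479.3 after glycerol. Of the 4 glycerol libraries, 3 were above all PBS libraries and glycerol 4 was below them. The log2 fold change was 0.06 ± 0.25 (adjusted p = 0.874), and without the libraries that repeat an S number it was 0.35 (adjusted p = 0.0145).

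Cyp51 (chr5:4081145-4104746, minus), which carries out the first step after lanosterol, had the lowest log2 fold change of the 8. Its values were 5944, 7697, 7329 and 6537 after PBS and 2693, 2439, 3160 and 1412 after glycerol. The highest glycerol library was well below the lowest PBS library. Cyp51 fell by -1.56 ± 0.22 (adjusted p = 0.000188), to 0.340 times the PBS level, and by -1.32 within the 13 libraries. The last bases of Cyp51 overlap Akap9 on the opposite strand, and how strand was handled in counting is not stated in the sources used here. Akap9 was at 2645 to 2932 after PBS and 1071 to 2660 after glycerol, and its part in the Cyp51 value was not tested.

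Of the regulators, Insig1 (chr5:28071363-28078662, plus) was at 1804, 1598, 1946 and 1843 in WT PBS and at 1108, 953.6, 1265 and 975.9 in WT glycerol. The groups did not overlap and the glycerol libraries lay close together. Insig1 fell by -0.75 ± 0.20 (adjusted p = 0.0118; -0.70 within the 13 libraries). Srebf2 (chr15:82147181-82205379, plus), which encodes the transcription factor itself, was at 2433, 2379, 2395 and 2559 after PBS and at 2824, 2398, 2896 and 2252 after glycerol. The groups overlapped, and the log2 fold change was 0.08 ± 0.13 (adjusted p = 0.672).

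The calls of Hmgcs1, Fdps, Sqle, Cyp51 and Insig1 held in all 16 fits that left out 1 library each. The authors' deposited table of this comparison called the same 2 higher and 4 lower, against 29% of its genes. With only libraries in which Ddx3y was detected 6 of 8 were called, against 21.1%, and with the covariates 6 of 8, against 49.3%. Cell markers moved in the same comparison. Of 9 proximal tubule markers 8 fell, and their summed level was 338800 to 377000 in WT PBS and 31280 to 144200 in WT glycerol. Of 8 injury genes 7 rose, with sums of 29150 to 32820 and 457200 to 1310000. Of 8 distal nephron markers 5 fell, Slc12a1 and Calb1 among them, with sums of 266600 to 297700 and 54860 to 159200. Of 7 podocyte and endothelial markers 2 fell, Kdr and Ehd3, with sums of 12570 to 13070 and 5071 to 12290. Of 5 neutrophil markers 3 rose. Few genes of the adrenal, fat and muscle lists were tested (2, 3 and 1), and of these Akr1b7 rose and Pck1, which tubules also express, fell. Of 6 liver genes 1 rose and 1 fell. The part of these markers in the members' values was not tested.

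Glycerol against PBS among libraries labelled C3-/- asked the same question where C3 is targeted. There Sqle rose and Cyp51 fell, and the other 6 did not pass the test. That is 2 of 8 called, against 5.63% of all genes tested (3.68% higher and 1.96% lower). The values of 3 of 8, Fdps, Sqle and Cyp51, did not overlap between groups, against 19.2% of all genes. The median log2 fold change of the 8 was -0.00 (range -1.10 to 1.12), against -0.06 over all genes.

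Sqle was at 1762, 1588, 1306 and 1641 in C3-/- PBS and at 4536, 2734, 3403 and 3143 in C3-/- glycerol. All glycerol libraries were above all PBS libraries, the highest being glycerol 1. The rise was 1.12 ± 0.20 (adjusted p = 0.00495), or 2.17-fold, and 0.90 within the 13 libraries (adjusted p = 0.00251). Cyp51 was at 11421, 9936, 12334 and 7818 after PBS and at 4363, 5202, 4451 and 5085 after glycerol. The glycerol libraries lay within a narrow band below every PBS library. Cyp51 fell by -1.10 ± 0.22 (adjusted p = 0.00883), to 0.466 times the PBS level, and by -0.99 within the 13 libraries (adjusted p = 0.00139).

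Fdps was at 825.3, 877.0, 618.3 and 541.7 after PBS and at 987.1, 1629, 1127 and 941.3 after glycerol. The groups did not overlap, but the spread in both was wide. The log2 fold change was 0.70 ± 0.21 and missed the threshold (adjusted p = 0.0593). It passed within the 13 libraries (0.82, adjusted p = 0.0185), without WT glycerol 4, which enters only the pooled spread (adjusted p = 0.0278), and without C3-/- glycerol 4 (0.80, adjusted p = 0.0421). The authors' deposited table called it, at 0.71 with an adjusted p of 0.0133, so that 3 of the 8 were called there against 15.9% of its genes.

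Hmgcs1, which fell in WT, was at 13525, 12797, 13069 and 17666 in C3-/- PBS and at 14098, 13071, 13473 and 16070 in C3-/- glycerol. The ranges nearly coincided, with a log2 fold change of -0.00 ± 0.20 (adjusted p = 0.999). Idi1 was at 1722, 1858, 1495 and 2593 after PBS and at 980.2, 2397, 1624 and 2472 after glycerol. The groups overlapped, with -0.10 ± 0.40 (adjusted p = 0.883), and the value within the 13 libraries was 0.38 (adjusted p = 0.18). Insig1 was at 1338, 1616, 1054 and 1274 after PBS and at 843.5, 1521, 1540 and 1125 after glycerol, a difference of -0.10 ± 0.20 (adjusted p = 0.759). Here too the groups overlapped, and glycerol 1 was the lowest library.

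Lss was at 843.4, 869.4, 749.3 and 830.5 after PBS and at 733.3, 1298, 695.0 and 922.2 after glycerol, with 0.10 ± 0.25 (adjusted p = 0.795). Of the glycerol libraries, 2 and 4 were above all PBS libraries and 1 and 3, which repeat an S number, below them; without those the log2 fold change was 0.41 (adjusted p = 0.0272). Srebf2 ranged from 2406 to 2699 after PBS and from 2358 to 3032 after glycerol, with -0.00 ± 0.13 (adjusted p = 0.999). Within the 13 libraries 4 of 8 were called, Fdps, Sqle and Lss higher and Cyp51 lower, against 23.3% of all genes; the same 4 were called with the covariates, against 18.8%. With only libraries in which Ddx3y was detected, where C3-/- PBS 4 stands alone and is assumed to vary like the other groups, none of the 8 was called (limma; 2 at an unadjusted p below 0.05), against 0.0402%. The log2 fold changes there were 0.99 for Sqle, 0.93 for Fdps and -0.72 for Cyp51. Of the proximal tubule markers 2 of 9 fell, with sums of 307000 to 407600 after PBS and 66410 to 280600 after glycerol, and 6 of 8 injury genes rose; their part was not tested.

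**Figure D2:**
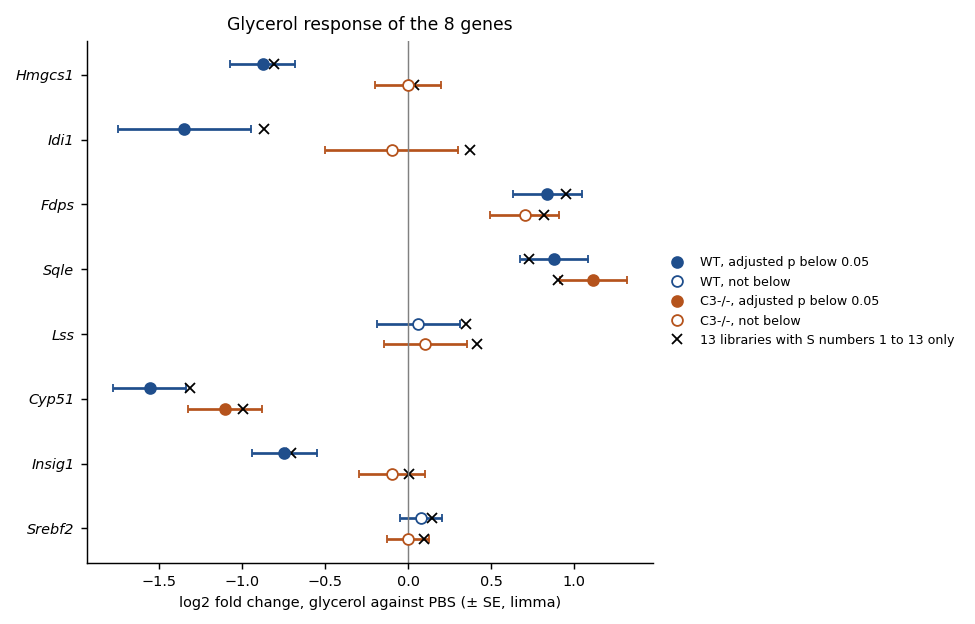
Log2 fold change of glycerol over PBS (limma, bars show ± 1 SE) for the 8 genes in WT and in libraries labelled C3-/-. Filled points passed an adjusted p of 0.05 and crosses give the value from the 13 libraries with S numbers 1 to 13. Sqle (0.88 and 1.12) and Cyp51 (-1.56 and -1.10) passed in both, whereas Hmgcs1, Idi1 and Insig1 passed in WT and lay near 0 in C3-/-. The cross of Idi1 in C3-/- was at 0.38. With all libraries none of the 8 was called for a difference between the responses (limma).

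The plot of the glycerol responses sets both genotypes side by side, and the difference between the responses was tested by itself. None of the 8 was called (limma), against 0.438% of all genes, and 3 of 8 were at an unadjusted p below 0.05, against 10.5%. Idi1 differed by 1.25 ± 0.56 (adjusted p = 0.458), Hmgcs1 by 0.88 ± 0.28 (adjusted p = 0.214) and Insig1 by 0.65 ± 0.28 (adjusted p = 0.424), all higher in C3-/- than in WT. Sqle (0.24 ± 0.29, adjusted p = 0.921) and Cyp51 (0.45 ± 0.31, adjusted p = 0.733) were nearer 0. Within the 13 libraries 1 gene was called, Idi1 (1.24, adjusted p = 0.0121), against 10.4% of all genes. With the covariates Idi1 (1.47, adjusted p = 0.00495) and Hmgcs1 (0.85, adjusted p = 0.0404) were called, against 8.76%. With only libraries in which Ddx3y was detected none of the 8 was called (limma; 1 at an unadjusted p below 0.05), against 0% of all genes. This contrast is built from the same libraries as the comparisons above and below, so it is no separate evidence.

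The genotypes were compared after PBS to show where the pathway stood without glycerol. None of the 8 was called (limma), against 2.23% of all genes, and 5 of 8 were at an unadjusted p below 0.05, against 10.4%. The values of 4 of 8, Hmgcs1, Idi1, Sqle and Cyp51, did not overlap between groups, against 27% of all genes. Idi1 was between 4762 and 5963 in WT and between 1495 and 2593 in libraries labelled C3-/-, and the log2 values differed by -1.52 ± 0.40 (adjusted p = 0.066). Cyp51 went the other way, from 5944 to 7697 in WT and from 7818 to 12334 in C3-/- (0.58 ± 0.22, adjusted p = 0.281). Sqle (-0.57 ± 0.20, adjusted p = 0.223), Hmgcs1 (-0.48 ± 0.20, adjusted p = 0.355) and Insig1 (-0.46 ± 0.20, adjusted p = 0.385) had lower means in C3-/-. Fdps (0.02), Lss (-0.02) and Srebf2 (0.09) were nearer 0, and their groups overlapped.

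These differences depended on the fit. Within the 13 libraries Idi1 (adjusted p = 4.62e-05), Sqle (0.0138) and Insig1 (0.0353) were lower and Cyp51 (0.0125) higher in C3-/-, 4 of 8 against 19.5% of all genes. The PBS libraries and the differences are the same in that fit. With the covariates 1 of 8 was called, Idi1 at -1.16 (adjusted p = 0.0114), against 3.48%. With only libraries in which Ddx3y was detected none was called (limma; 0 at an unadjusted p below 0.05), against 0.201%. There C3-/- PBS 4 is the 1 library of its group, and the differences were 0.19 for Cyp51, -0.16 for Hmgcs1, -1.06 for Idi1, -0.50 for Sqle and -0.49 for Insig1. With only the PBS groups fitted, 5 of 8 were called, against 26.3%, Hmgcs1 (adjusted p = 0.0129) being the addition. The Idi1 call also appeared without WT glycerol 4 (adjusted p = 0.00379) or C3-/- glycerol 1 (adjusted p = 0.0425), which enter only the pooled spread. C3-/- PBS 4, the only library of its group with Ddx3y detected, was the nearest of its group to WT for Hmgcs1 (17666), Idi1 (2593) and Cyp51 (7818). For Sqle the nearest was C3-/- PBS 1 (1762) and for Insig1 C3-/- PBS 2 (1616). Genotype and the pattern of sex in Ddx3y and Xist cannot be told apart for the other 3 libraries. Of 5 neutrophil markers 2 were lower in C3-/- (sums of 30.41 to 50.0 against 144.4 to 224.0), and their part was not tested.

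After glycerol, libraries labelled C3-/- and WT were compared for the genes as the injured kidneys stood. Cyp51 was higher in C3-/-, at 4363 to 5202 against 1412 to 3160 (1.03 ± 0.22, adjusted p = 0.00697), or 2.05-fold. It was the 1 of 8 called, against 11.2% of all genes, and the 1 of 8 whose groups did not overlap, against 11.3%. The other 7 ran from -0.33 (Sqle) to 0.40 (Hmgcs1), with adjusted p from 0.235 to 0.973. Cyp51 was also called within the 13 libraries (0.90, adjusted p = 0.00282), the 1 of 8 against 30.4%, and in the authors' deposited table, where it was the 1 member called against 16.8% of genes. It was not called when only the glycerol groups were fitted (adjusted p = 0.122) or columns had equal totals (0.99, adjusted p = 0.063). Nor was it called over the libraries with Ddx3y (1.03, adjusted p = 0.09), where 4.18% of all genes were. With the covariates Cyp51 and Hmgcs1 (0.56, adjusted p = 0.0354) were called, against 33.6%. Of the injury genes 7 of 8 were lower in C3-/- (sums of 38900 to 214300 against 457200 to 1310000), as were 4 of 5 neutrophil markers (67.86 to 225.7 against 493.9 to 1133). Of 8 distal nephron markers 4 were higher, Slc12a1, Calb1, Aqp2 and Aqp3 (sums of 100500 to 326200 against 54860 to 159200). The part of these in the Cyp51 difference was not tested. WT glycerol libraries enter this comparison and the WT response alike.

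Within single libraries, the opposite moves of Sqle and Cyp51 can be read as a ratio that does not depend on the scaling of the library. Sqle over Cyp51, in normalized counts not divided by length, was 0.293 to 0.412 in WT PBS and 1.18 to 4.12 in WT glycerol. In libraries labelled C3-/- it was 0.106 to 0.21 after PBS and 0.525 to 1.04 after glycerol. The ranges of the 4 groups did not overlap, and the highest, 4.12, was WT glycerol 4. The pair was chosen after its values were seen. Each gene alone already separated glycerol from PBS in both genotypes, in opposite directions. The separation of the ratio by glycerol follows from that and is no separate evidence.

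Beyond the 8 genes, 14 further enzymes of sterol and isoprenoid synthesis were tested. In WT after glycerol 2 rose and 1 fell, against 25.9% of all genes called. The list median was -0.42 against -0.11 over all genes, and -0.20 against -0.05 within the 13 libraries. Both in the 13 libraries and with the covariates 2 rose and 5 fell, Mvd, Tm7sf2, Nsdhl and Ebp joining Acat2. Of all genes 56.2% and 49.3% were called in these fits, so the list stood near the share over all genes. Msmo1, which removes the C-4 methyl groups after Cyp51, was at 1276 to 1550 after PBS and 1859 to 3913 after glycerol (0.99 ± 0.26, adjusted p = 0.0115). Fdft1, squalene synthase, rose by 0.51 ± 0.17 (adjusted p = 0.0404), a call lost without any 1 of the WT PBS libraries, C3-/- PBS 1 or WT glycerol 1, 2 or 3 (adjusted p from 0.0502 to 0.109). Acat2, an acetoacetyl-CoA thiolase at the entry to the pathway, fell by -0.81 ± 0.24 (adjusted p = 0.0209), a call lost without WT PBS 2, WT PBS 4 or WT glycerol 2 (adjusted p from 0.05 to 0.07).

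In C3-/- none of the 14 was called after glycerol by limma (1 at an unadjusted p below 0.05), against 5.63% of all genes. The list median was -0.08 against -0.06, and 0.0044 against -0.0097 within the 13 libraries. Msmo1 there had a log2 fold change of 0.75 ± 0.26 (adjusted p = 0.1). Over the 13 libraries 2 of the 14 rose (Msmo1 and Hsd17b7) and 2 fell (Tm7sf2 and Ebp), against 23.3% of all genes. Between genotypes after glycerol Dhcr7, which makes cholesterol from its last precursor, was higher in C3-/- (0.76 ± 0.23, adjusted p = 0.0427), a call that held in 3 of the 16 fits without 1 library. It was lost without any 1 PBS library, WT glycerol 2 or 4 or C3-/- glycerol 1, 2 or 3 (adjusted p from 0.0516 to 0.138). After PBS Dhcr7 was at 684.9 to 895.8 in C3-/- and 488.5 to 593.4 in WT (0.49, adjusted p = 0.477). Its responses to glycerol differed by 0.28 (adjusted p = 0.915).

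The machinery that carries, cleaves and turns over SREBP held 10 further genes. In WT 1 fell after glycerol and none rose, against 25.9% of all genes called. The list median was -0.44, and -0.11 within the 13 libraries. Both in the 13 libraries and with the covariates 1 rose (Mbtps2) and 3 fell (Mbtps1, Erlin1 and Stard4), against 56.2% and 49.3%. Mbtps1, the site-1 protease that cleaves SREBP, fell by -0.51 ± 0.16 (adjusted p = 0.0291), a call lost without WT PBS 2 or 3 or WT glycerol 4 (adjusted p from 0.0645 to 0.0882). Scap, the SREBP escort (-0.11 ± 0.18), Srebf1, which encodes SREBP-1 (-0.07 ± 0.17), and Insig2 (-0.54 ± 0.40) did not pass. Insig2 was at 367.9 in WT glycerol 4, against 1157 to 1469 in the rest of that group and 1192 to 1479 in WT PBS. In C3-/- none of the 10 was called by limma (4 at an unadjusted p below 0.05), against 5.63% of all genes. Within the 13 libraries 1 of the 10 rose there (Mbtps2) and 1 fell (Mbtps1), against 23.3%.

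Uptake and lysosomal release of cholesterol held 13 genes. In WT after glycerol 2 rose and none fell, against 25.9% of all genes called. The list median was -0.18, and 0.17 within the 13 libraries. Both in the 13 libraries, where 12 were tested, and with the covariates 4 rose (Lrp1, Scarb1, Npc1 and Gramd1a) and 4 fell (Vldlr, Lipa, Npc2 and Gramd1b). The shares of all genes called in these fits were 56.2% and 49.3%. Scarb1, the HDL receptor, rose by 0.73 ± 0.23 (adjusted p = 0.0321), a call lost without WT PBS 1, 2 or 4 or WT glycerol 1 or 2 (adjusted p from 0.056 to 0.0885). Npc1, which exports cholesterol from lysosomes, rose by 0.64 ± 0.22 (adjusted p = 0.047), a call that held in 5 of the 16 fits without 1 library. It was lost without any 1 PBS library, without WT glycerol 2 or 4 or without C3-/- glycerol 4 (adjusted p from 0.05 to 0.113).

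In libraries labelled C3-/- 1 of the 13 rose, Npc1, and none fell, while in the 13 libraries Npc2 also fell, and with the covariates Npc2 and Lipa did. The shares of all genes called in these fits were 5.63%, 23.3% and 18.8%. Npc1 rose by 0.97 ± 0.22 (adjusted p = 0.0194), lost without C3-/- PBS 1, 2 or 3 (adjusted p from 0.0553 to 0.0704). Between genotypes after glycerol, Gramd1b, which moves cholesterol from the plasma membrane, was higher in C3-/- (1.30 ± 0.27, adjusted p = 0.00543). The call held in all 16 fits without 1 library. After PBS Gramd1b was at 4552 to 9359 in C3-/- and 3773 to 4589 in WT (0.80, adjusted p = 0.18). Its lowest C3-/- PBS value was in PBS 4, which had Ddx3y. Its responses to glycerol differed by 0.50 (adjusted p = 0.786). Scarb1 and Lrp1, a large endocytic receptor, were lower in C3-/- after glycerol, at -0.77 ± 0.23 (adjusted p = 0.0435) and -1.32 ± 0.35 (adjusted p = 0.0249). After PBS their differences were 0.14 and -0.63, and neither was called. The Scarb1 call was lost without any 1 PBS library, WT glycerol 1 or 2 or C3-/- glycerol 1 or 3 (adjusted p from 0.0534 to 0.127), and the Lrp1 call without WT glycerol 1 or 2 or C3-/- glycerol 2 or 4 (adjusted p from 0.0571 to 0.0763).

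**Figure D3:**
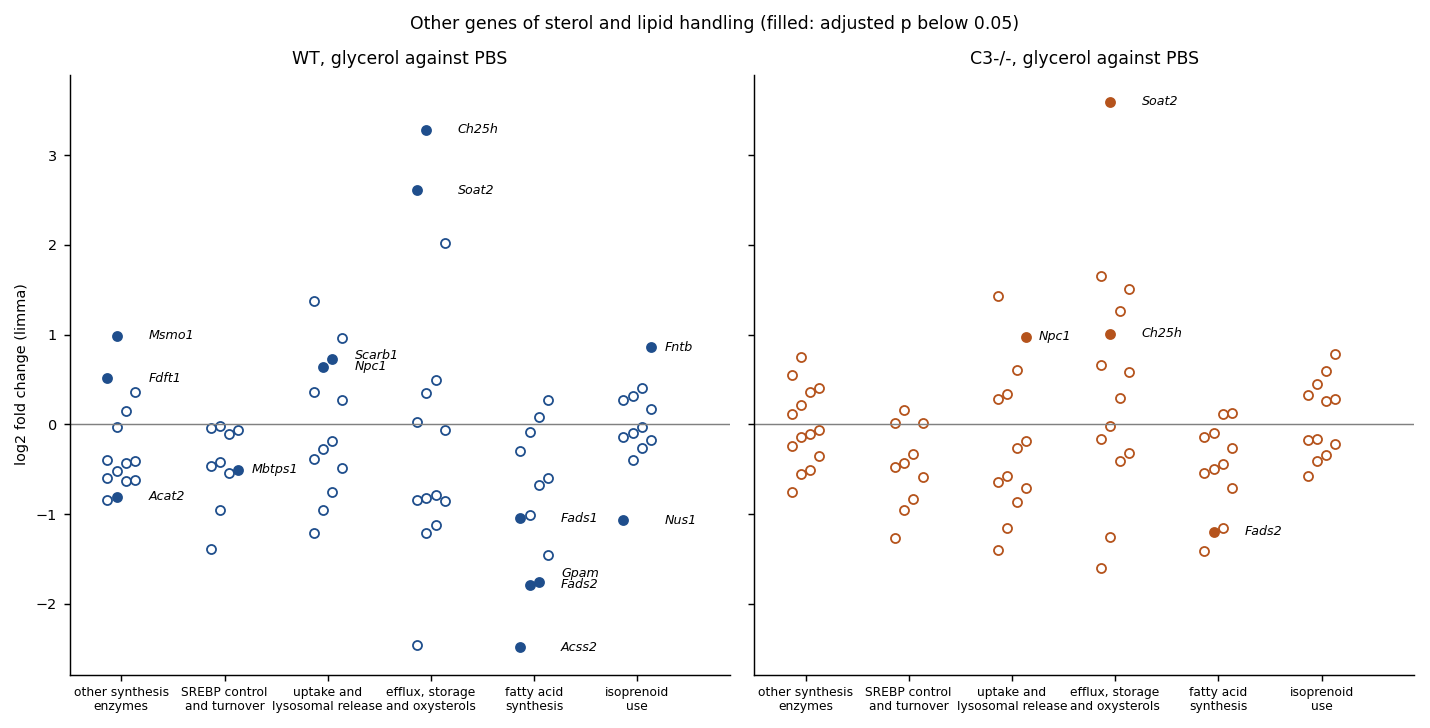
Log2 fold change of glycerol over PBS for 6 lists of sterol and lipid genes beside the 8, in WT (left) and in libraries labelled C3-/- (right). Each circle is a gene, filled and named where the adjusted p was below 0.05, and the horizontal offset within a list only separates the points. Ch25h and Soat2 lay at the top in WT and Acss2 at the bottom, at -2.48.

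Among 14 tested genes of efflux, esterification and oxysterols, shown with the other lists in the plot of pathway lists, 2 rose and none fell in each genotype. Of all genes 25.9% were called in WT and 5.63% in C3-/-. In WT the count was 4 higher and 4 lower in the 13 libraries (Abcg1, Apoe, Cyp27a1 and Cyp46a1 lower), against 56.2% of all genes. With the covariates it was 4 higher and 6 lower, against 49.3%. In C3-/- it was 3 higher and none lower in the 13 libraries, against 23.3%, and 3 higher and 1 lower with the covariates, against 18.8%. Ch25h makes 25-hydroxycholesterol, an oxysterol known to hold back SREBP. It was at 32.7 to 43.2 in WT PBS and at 425.5, 536.9, 328.0 and 209.9 in WT glycerol, against 32.3 to 38.3 and 81.9, 79.9, 58.0 and 70.1 in C3-/-. All glycerol libraries were above all PBS libraries in both genotypes, and all WT glycerol libraries were above all C3-/- glycerol libraries. The rise was 3.28 ± 0.26 in WT (adjusted p = 2.03e-06) and 1.01 ± 0.26 in C3-/- (adjusted p = 0.0346). The C3-/- call was lost without any 1 C3-/- PBS library, without WT PBS 1, 2 or 4 or without C3-/- glycerol 1 or 2 (adjusted p from 0.0513 to 0.098). The difference between the responses was -2.27 ± 0.37 (adjusted p = 0.012) and held in all 16 fits without 1 library. Of 8 macrophage markers 4 rose and 1 fell in WT and 2 rose in C3-/-, with sums of 3333 to 3641 in WT PBS, 3049 to 5048 in WT glycerol and 3292 to 5053 in C3-/- glycerol; their part in Ch25h was not tested.

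Soat2, which esterifies cholesterol for storage, was at 7.2 to 9.0 in WT PBS and at 26.9, 50.9, 19.8 and 304.5 in WT glycerol. The last of these is WT glycerol 4, and the rise of 2.61 ± 0.70 (adjusted p = 0.0135) was 1.79 without it. In C3-/- Soat2 was at 8.3 to 15.2 after PBS and at 410.2, 82.3, 241.4 and 78.4 after glycerol (3.6 ± 0.70, adjusted p = 0.00758), the 2 high values being the libraries with repeated S numbers; without these it rose by 2.62. Abca1, a cholesterol exporter and target of the oxysterol receptors, had -0.78 ± 0.51 in WT and -1.25 ± 0.51 in C3-/- (adjusted p = 0.273 and 0.15). In C3-/- Abca1 was at 692.0 to 970.6 after PBS. After glycerol it was at 185.2 and 169.2 in C3-/- libraries 1 and 3, which repeat an S number, and at 752.9 and 747.0 in 2 and 4. In WT glycerol it was at 1253, 433.7, 1460 and 425.3, the last being WT glycerol 4. Between genotypes after glycerol Apoe, the lipoprotein ligand, was higher in C3-/- (1.20 ± 0.34, adjusted p = 0.0348). The call was lost without WT glycerol 1, 2 or 3 or C3-/- glycerol 1, 2 or 3 (adjusted p from 0.0513 to 0.103). After PBS Apoe was at 3221 to 9078 in C3-/-, the lowest being PBS 4, which had Ddx3y, and at 3829 to 4424 in WT (0.66, adjusted p = 0.579). Its responses to glycerol differed by 0.54 (adjusted p = 0.849).

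**Figure D4:**
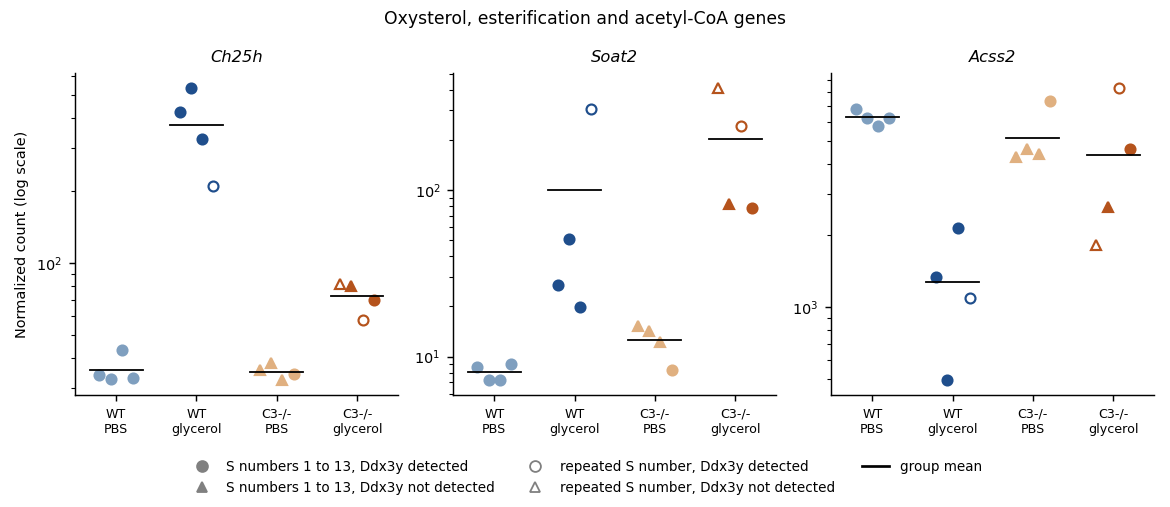
DESeq2-normalized counts (log axis) of Ch25h, Soat2 and Acss2 in the 16 libraries, with group means as bars and symbols for S number and Ddx3y as in the legend. Ch25h was 209.9 to 536.9 in WT glycerol and 58.0 to 81.9 in C3-/- glycerol, and Acss2 was 492.5 to 2156 and 1831 to 8337.

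Among 12 genes of fatty acid synthesis, which SREBP-1 is known to drive, 4 fell and none rose in WT after glycerol, against 25.9%. Acss2, the cytosolic enzyme that makes acetyl-CoA from acetate, was at 5771 to 6775 after PBS and 492.5 to 2156 after glycerol, as the plot of single genes shows (-2.48 ± 0.44, adjusted p = 0.000986). The desaturase Fads2 (-1.79 ± 0.33, adjusted p = 0.00131) and Gpam, which starts triglyceride synthesis (-1.76 ± 0.38, adjusted p = 0.00374), also fell. Fads1 fell by -1.05 ± 0.32 (adjusted p = 0.0267), a call lost without any 1 WT PBS library or WT glycerol 2 or 4 (adjusted p from 0.0531 to 0.0679). In C3-/- 1 of the 12 fell, against 5.63% of all genes called. It was Fads2 (-1.20 ± 0.33, adjusted p = 0.0482), which was called in 5 of the 16 fits without 1 library. The 11 libraries whose removal ended that call were all PBS libraries, WT glycerol 1 and C3-/- glycerol 1 and 3 (adjusted p from 0.0507 to 0.159), and within the 13 libraries it was not called (-0.90, adjusted p = 0.0642). The list medians were -0.85 in WT and -0.47 in C3-/-, and -0.54 and -0.07 within the 13 libraries. In those libraries 4 of the 12 fell in WT, against 56.2% of all genes called. In C3-/- 0 of the 12 was called there (limma), against 23.3%. Between genotypes after glycerol Acss2 was higher in C3-/- (1.72 ± 0.44, adjusted p = 0.0196), a call lost without WT glycerol 2 (adjusted p = 0.0657) or C3-/- glycerol 3 (adjusted p = 0.0609). After PBS Me1, malic enzyme, was lower in C3-/- (-1.29 ± 0.30, adjusted p = 0.0356). The call was lost without any 1 WT PBS library, C3-/- PBS 1, 2 or 3 or WT glycerol 1 (adjusted p from 0.0513 to 0.149). Me1 was at 14771 in C3-/- PBS 4, which had Ddx3y, and at 5245 to 7015 in the rest of that group, against 17320 to 19986 in WT PBS. Genotype and the pattern of sex cannot be told apart for that rest.

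Of 12 users of isoprenoids, Fntb, a subunit of protein farnesyltransferase, rose in WT from 171.4 to 187.7 after PBS to 297.6 to 350.4 after glycerol (0.86 ± 0.15, adjusted p = 0.000706). Nus1, of dolichol synthesis, fell by -1.07 ± 0.35 (adjusted p = 0.0343), a call lost without any 1 WT PBS library or WT glycerol 2 or 4 (adjusted p from 0.0618 to 0.0897). With all libraries the WT count was 1 higher and 1 lower, against 25.9% of all genes. In the 13 libraries it was 4 higher and 1 lower, against 56.2%, and with the covariates 2 and 2, against 49.3%. In C3-/- none of the 12 was called by limma (2 at an unadjusted p below 0.05), against 5.63% of all genes. Fntb was called there in the 13 libraries, the 1 of 12, against 23.3%.

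Over the 16 libraries, the mean of the 8 genes' z-scored log2 values correlated most with Acaca (Pearson r = 0.872), C1ql3 (0.853) and Fgf1 (0.851) among 13765 genes. Over the 13 libraries the leading genes were Acaca (0.866), Adnp (0.862) and Nucb1 (0.854). The libraries share groups and scaling, so these are descriptions.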

How the data were processed

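RNA from kidney sections was sequenced in 16 libraries, 4 per group, grouped by the sample titles. The authors deposited a matrix of gene-level signal, read counts normalized with DESeq2, and 3 tables of their own comparisons with log2 fold changes, p-values, adjusted p-values and a Wald statistic score. The authors' tools and build, per the submitters' processing notes, included STAR (2.7.1), R (3.6.1), DESeq2 and GRCm38. Gene models were Ensembl release 96, per the file headers. Which program counted reads, and with what strand setting, is not stated there. Whole reads could not be recovered from the values, so no count model was run and no interval for counting error is given.

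Tests used limma (3.58.1, under R 4.3.3) on log2 of the normalized count plus 1 (1 coefficient per group, mean-variance trend, two-sided). Genes with at least 10 in at least 4 libraries were tested, 18035 of 20525. A gene was called at a Benjamini-Hochberg adjusted p below 0.05 over all tested genes. Fold changes on this scale understate changes of low genes. The limma setting was also run on simulated data with known changes. Those data held none of the differences between libraries described here, so that run does not bear on these calls. Positions are from GENCODE M21 and promoters from RefSeq.

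The 8 genes and the other lists were chosen with earlier results of these data known. Named genes were to be all 8 and, per list and comparison, up to 6 called genes with the smallest p (2 for marker lists), plus a set of sterol genes such as Srebf1, Insig2, Scap and Abca1. Some marker genes are given as counts, and genes called in the 13 libraries or with covariates alone were named after their values were seen. Genes of a similar pattern had a mean of at least 50. Some markers, such as Cyp11a1, Adipoq and Acta1, were not analysed here, and a few further genes of the lists are not reported here and are in none of the list counts. Alternatives were a pseudocount of 8, no filter, other scalings, other sets of libraries, covariates, library weights, a replicate block and leaving out each library.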

Additional observations from a re-analysis of the deposited data

Results flagged for a closer look

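Among 140 groups of 4 libraries (35 genes in 4 groups), 5 held 1 library far from the other 3 by Dixon's test at the 95% level, which by chance alone flags about 1 group in 20. In WT glycerol 4, Lss was 479.3 against 1002 to 1161 in the other libraries of its group, Mbtps1 was 1371 against 1979 to 1996, and Apoe was 4109 against 1792 to 1963. That library repeats an S number. In C3-/- PBS 4, which had Ddx3y unlike the rest of its group, Acss2 was 7313 against 4288 to 4607. In WT PBS 3, Ch25h was 43.23 against 32.72 to 33.98.

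The response of Ch25h to glycerol differed between libraries labelled C3-/- and WT by a log2 value of -2.27, with a limma adjusted p of 0.012.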

How the results depend on the processing

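The cause of each change was not tested. The counts of the 8 genes called, 6 in WT and 2 in C3-/- after glycerol, 1 between genotypes after glycerol, 0 between genotypes after PBS and 0 for the difference between responses (limma), moved as follows. For glycerol in WT it was 8 with library weights, 7 in the 13 libraries, 5 with only the groups compared, 4 with equal column totals and 5 to 6 without 1 library. For glycerol in C3-/- the count was 4 in the 13 libraries, 4 with covariates, 0 with only libraries in which Ddx3y was detected and 5 with library weights. Between genotypes after glycerol it was 0 with equal column totals, 0 with only the groups compared, 0 with Ddx3y libraries, 2 with covariates and 2 with weights. Between genotypes after PBS it was 5 with only the groups compared, 4 in the 13 libraries, 1 with covariates, 5 with weights, and 0 to 1 without 1 library. For the difference between responses it was 1, 2 and 3 in the 13 libraries, with covariates and with weights. The weights were estimated without full convergence, and with them 60.4%, 31%, 35.7%, 38.1% and 17.9% of all genes were called in these 5 comparisons.

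Reversed signs occurred only for values not called with all libraries. For glycerol in C3-/-, the values in the 13 libraries, with covariates and with weights were 0.036, 0.017 and 0.039 for Hmgcs1, 0.38, 0.46 and 0.47 for Idi1 (called with weights, adjusted p = 0.0334) and 0.10, 0.12 and 0.17 for Srebf2. Insig1 was 0.0028 in the 13 libraries, 0.047 with Ddx3y libraries and 0.12 with weights, and Lss was -0.053 with Ddx3y libraries. Between genotypes after glycerol, Idi1 was 0.31 with covariates, Fdps 0.0022 with weights, and with equal totals and Ddx3y libraries Lss was -0.013 and -0.12 and Srebf2 -0.028 and -0.033. After PBS, Fdps was -0.27 with covariates and -0.35 with Ddx3y libraries, and Lss 0.062 with equal totals. In the difference between responses, Fdps was 0.042 with covariates and 0.087 with Ddx3y libraries, and Lss -0.075 with equal totals and -0.12 with Ddx3y libraries.

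Without 1 library each, the reversing values ran, for glycerol in C3-/-, from -0.062 to 0.11 (Hmgcs1), -0.26 to 0.18 (Idi1), -0.08 to 0.22 (Lss), -0.21 to 0.081 (Insig1) and -0.075 to 0.046 (Srebf2), and for Lss in WT from -0.077 to 0.35. Between genotypes they ran after glycerol from -0.75 to 0.0036 (Idi1), -0.26 to 0.16 (Lss) and -0.065 to 0.066 (Srebf2), and after PBS from -0.087 to 0.14 (Fdps) and -0.046 to 0.027 (Lss). For the difference between responses Lss ran from -0.24 to 0.18.

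Whether replicate numbers pair the libraries could not be decided. Over 24 same-numbered pairs the correlation of deviations ran from -0.692 to 0.385, with 4 over 0.1. Pairs with different numbers ran from -0.691 to 0.669, so a pairing could be hidden by this spread. With a replicate block 6, 2, 1, 0 and 0 of the 8 were called, as without it. Of the alternatives for called values 224 kept the call and 10 lost it. Sequencing depth is unknown, so no limit from counting error could be set, and 4 libraries a group bound the precision.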
